A study of Homo sapiens with 36 samples.

Results

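The ENA/VASP actin regulators described here are 5 of the 62757 genes in the count tables: VASP, ENAH, EVL, ZYX and PFN1. They were selected on these data because VASP was far lower in FBXW7-/- cells than in WT cells, so each contrast of KO with WT is given as a description without a test. All 5 genes passed the filter on low counts, which left 12356 genes for testing. PolyA RNA was sequenced from HCT-116 cells, an established human colorectal carcinoma line, either WT or FBXW7-/- (KO). FBXW7 is the substrate receptor of an SCF ubiquitin ligase; the methods do not state whether the KO line came from a single clone. KO cells carried a control esiRNA (esiCT), an esiRNA pool against the deacetylase HDAC4 (esiHDAC4), or esiCT with PROTAC #11, a degrader of class IIa HDACs, for 48 h. For #11 the labels give 1 µM in one entry and 10 µM in another, and the dose is therefore left unsettled. Oxaliplatin (OXPT), a platinum drug that crosslinks DNA, was present at 50 µM during the last 24 h or was left out (untreated). With 3 libraries each, this gave KO esiCT, KO esiHDAC4 and KO #11, all untreated and with OXPT, beside WT untreated and WT OXPT. The 6 WT libraries are called siCT by title and esiHDAC4 by their treatment entry, so the esiRNA they carried is unsettled, and every KO against WT contrast shares this limit. A further 12 WT libraries, in which title and treatment entry give opposite OXPT states, entered no comparison.

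Proteins of the ENA/VASP family sit at the growing ends of actin filaments, where they slow capping and hand over profilin-bound actin monomers to the filament. VASP, ENAH (also called Mena) and EVL are the mammalian paralogs and share an N-terminal EVH1 domain that binds proline-rich motifs in partner proteins. ZYX encodes zyxin, a LIM protein that recruits the family to focal adhesions and stress fibres through such motifs, and PFN1 encodes profilin 1, the main carrier of ATP-actin monomers. In epithelial cells these proteins are known for their part in cell-cell junctions, lamellipodia and adhesion to the matrix.

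The promoters of the 3 paralogs are shown first, because the comparison of VASP with ENAH and EVL carries the result. Each is the 250 bases before the transcript start in RefSeq on GRCh38.p14, written 5′ to 3′ on the strand of the gene, and capitals mark matches to the motifs named afterwards. The windows are chr19:45507229-45507478 on the plus strand for VASP, chr1:225653124-225653373 on the minus strand for ENAH and chr14:99971172-99971421 on the plus strand for the upstream start of EVL.
VASP: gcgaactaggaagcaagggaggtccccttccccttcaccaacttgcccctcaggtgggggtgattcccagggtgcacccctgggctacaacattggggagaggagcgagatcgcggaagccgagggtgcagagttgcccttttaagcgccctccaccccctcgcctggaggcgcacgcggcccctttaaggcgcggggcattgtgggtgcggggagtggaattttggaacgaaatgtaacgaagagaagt
ENAH: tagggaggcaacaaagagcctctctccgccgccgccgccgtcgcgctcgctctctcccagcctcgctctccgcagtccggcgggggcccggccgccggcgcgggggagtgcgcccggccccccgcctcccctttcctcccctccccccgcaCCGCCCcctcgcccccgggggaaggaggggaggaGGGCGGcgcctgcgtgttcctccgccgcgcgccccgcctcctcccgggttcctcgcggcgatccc
EVL: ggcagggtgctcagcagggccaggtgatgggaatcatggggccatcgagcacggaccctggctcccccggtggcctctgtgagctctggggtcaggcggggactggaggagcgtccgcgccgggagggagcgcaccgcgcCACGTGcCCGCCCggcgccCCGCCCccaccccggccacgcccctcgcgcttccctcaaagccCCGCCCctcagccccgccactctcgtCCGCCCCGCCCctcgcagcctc

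The motifs searched on both strands were the GC box GGGCGG, the E-box CACGTG, the AP-1 site TGANTCA and the CArG box of serum response factor. Of 35116 RefSeq promoters of this length, 42.6% held the GC box, 6.34% the E-box, 6.57% the AP-1 site and 1.16% the CArG box. The VASP window held none of the 4 motifs. This window lies inside the GENCODE span of VASP, which begins upstream of it at chr19:45506579. The ENAH window and the upstream EVL window lie at the edge of the spans of their genes, so the windows are not placed alike. The GC box was found 2 times in the ENAH window, 5 times at the upstream start of EVL, where 2 matches overlap, 1 time at the second start of EVL, 5 times in ZYX and 2 times in PFN1. An E-box was found at the upstream start of EVL alone. GC content was 61.6% for VASP, 80% for ENAH and 76.8% for the upstream EVL window. These matches describe letters in a window and say nothing about binding.

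By the GENCODE annotation of GRCh38, VASP (ENSG00000125753.15) spans chr19:45506579-45526989 and ENAH (ENSG00000154380.19) spans chr1:225486765-225653142, and neither overlaps another annotated gene. EVL (ENSG00000196405.13, chr14:99971449-100144236) overlaps 6 genes, among them DEGS2. ZYX (ENSG00000159840.16, chr7:143381295-143391111) overlaps EPHA1 and PFN1 (ENSG00000108518.8, chr17:4945652-4949061) overlaps ENO3, both on the opposite strand. The libraries carried no strand information, and reads in such overlaps were dropped by the unstranded counting used here. The unstranded counts of EVL, ZYX and PFN1 were 80.9%, 73.9% and 65.3% of the sums over both strands, against 100.0% for VASP and ENAH, so the levels of these 3 genes are minima.

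Between 10725966 and 20527222 reads per library were counted on genes, with a median of 14510758. Of the 7 markers of colorectal epithelium, 6 had a median of at least 10 counts per 1000000 (CPM) and CDX1 was at 0. The summed level was 0.132 to 1.14 CPM for 4 leukocyte markers, 25.2 to 77.6 CPM for 3 fibroblast markers, of which COL1A2 and DCN had medians of 0, and 0.182 to 2.37 CPM for 2 endothelial markers. FBXW7 mRNA was 15.4 to 18.1 CPM in KO esiCT untreated and 16.9 to 23.5 CPM in WT untreated, so that its level does not separate the genotypes. HDAC4 mRNA was 3.33 to 4.19 CPM in KO esiHDAC4 OXPT, below the 5.71 to 7.50 CPM of KO esiCT OXPT, while the untreated ranges touched at 8.80 to 14.9 and 14.02 to 24.9 CPM, with the esiHDAC4 library the lower of each same-numbered pair (8.94 against 18.4, 8.80 against 14.02 and 14.9 against 24.9 CPM). The number 3 libraries of WT stood apart from numbers 1 and 2 for several of the genes below, and values without number 3 are given where they move a result.

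VASP mRNA was many times lower in every KO library than in any WT library. WT untreated gave 140, 152 and 524 CPM in replicates 1, 2 and 3, and WT OXPT gave 154, 234 and 340 CPM. KO esiCT untreated gave 19.9, 18.5 and 19.3 CPM, and KO esiCT OXPT gave 25.3, 31.9 and 30.5 CPM. The 18 KO libraries ranged from 12.2 to 41.4 CPM with a median of 25.8, and the lowest WT library was 3.38 times the highest KO library. All 18 lay below all 6 WT libraries, and within WT both number 3 libraries were the highest of their groups. This separation is the reason the gene was chosen, and no test is attached to it. In bulk RNA, fewer cells with VASP mRNA and less VASP mRNA per cell cannot be told apart.

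The fitted log2 fold change of VASP between KO esiCT and WT was -3.82 with an SE of 0.41 in untreated cells and -3.05 with an SE of 0.40 under OXPT. For KO esiHDAC4 against WT it was -4.31 (SE 0.42) and -3.00 (SE 0.40). Among the 12356 genes, VASP was number 15 and number 11 from the lowest fold change in the esiCT contrasts, and number 12 and number 11 in the esiHDAC4 contrasts. In these contrasts 0.291%, 0.138%, 0.866% and 0.235% of all genes passed the test at an adjusted p under 0.05 with a fold over 1.5, a share from which nothing is read about genes chosen on the same contrast. Without the number 3 libraries, the untreated KO esiCT value was -2.92 and the OXPT value -2.77. Leaving out single libraries moved the untreated value between -4.13 and -2.92, the latter without WT untreated replicate 3.

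**Figure D1:**
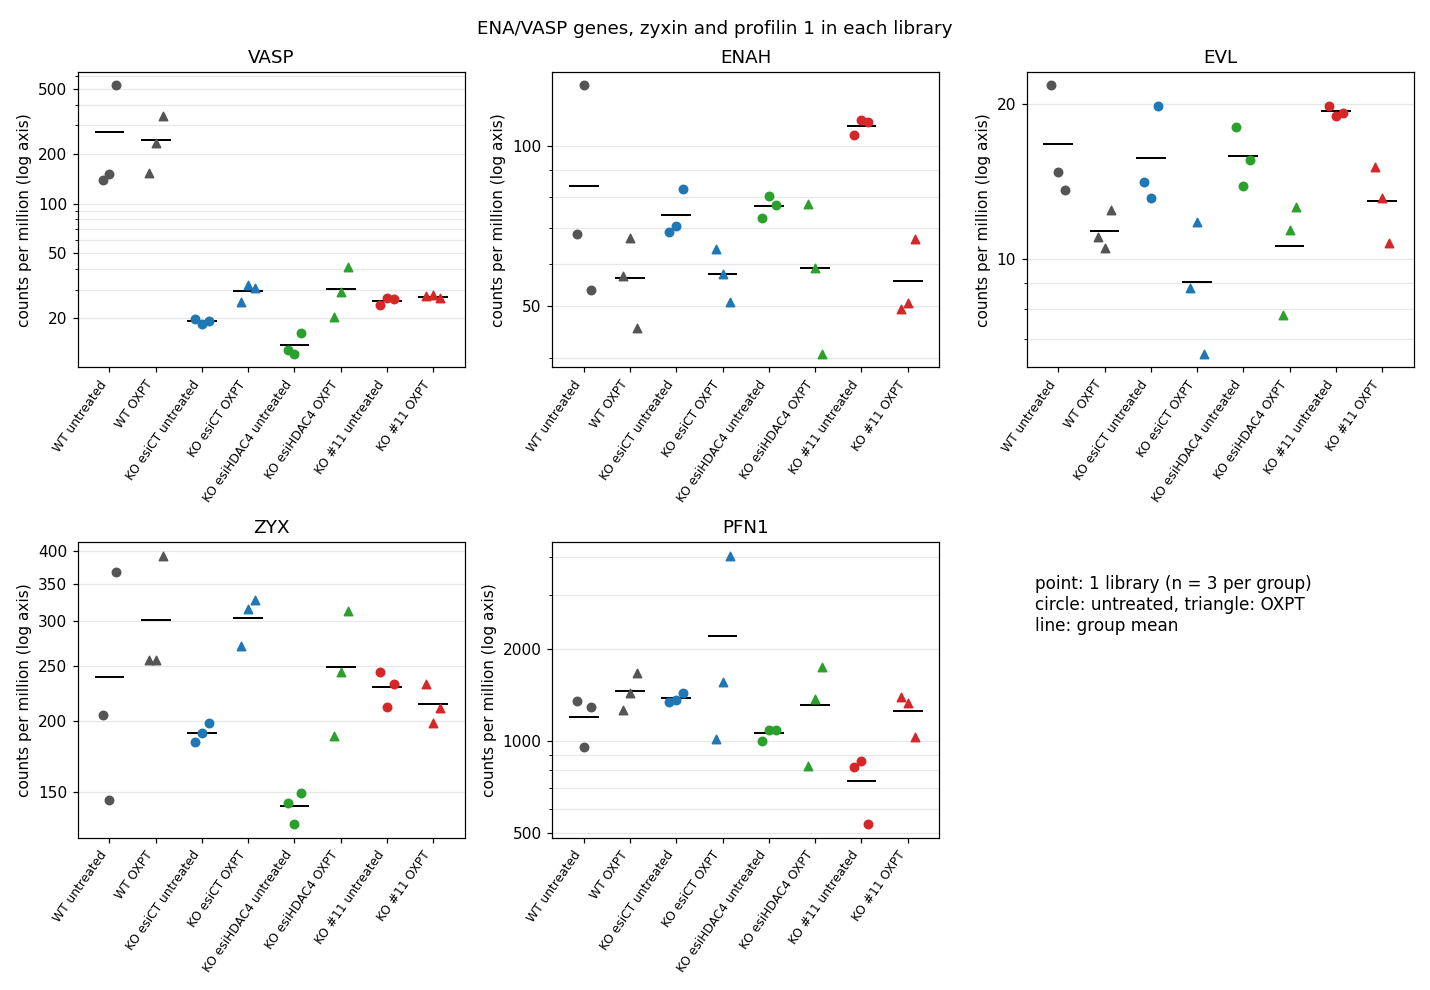
CPM on log axes of VASP, ENAH, EVL, ZYX and PFN1 in each of the 24 libraries, with circles for untreated cells, triangles for OXPT and lines for group means (n = 3). All VASP points of KO lie at or below 41.4 CPM and all WT points at or above 140 CPM, whereas the KO and WT points of the other 4 genes overlap.

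Within KO the order of the VASP means, from the lowest, was KO esiHDAC4 untreated (13.7 CPM ± 2.18, SD, n = 3), KO esiCT untreated (19.2 ± 0.728), KO #11 untreated (25.6 ± 1.36), KO #11 OXPT (27.1 ± 0.584), KO esiCT OXPT (29.2 ± 3.48) and KO esiHDAC4 OXPT (30.3 ± 10.5). WT OXPT (243 ± 93.2) and WT untreated (272 ± 218) followed. The libraries of neighbours in this order overlapped from KO #11 untreated upwards within KO, and also between both WT groups. The 3 lowest groups did not overlap each other, and neither did KO and WT.

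ENAH, the paralog with the longest mRNA, was at similar levels in KO and WT. WT untreated gave 68.3, 130 and 53.5 CPM, and KO esiCT untreated gave 68.8, 70.7 and 82.8 CPM, so that the KO values lay inside the WT range. Under OXPT, WT gave 57.0, 67.1 and 45.5 CPM and KO esiCT gave 63.9, 57.5 and 50.8 CPM. The log2 fold change of KO esiCT against WT was -0.18 (SE 0.26) untreated and 0.023 (SE 0.26) under OXPT. Leaving out single libraries moved the untreated value between -0.42 and 0.28. No KO library exceeded the highest WT library, which was replicate 2 of WT untreated.

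EVL had the lowest mean CPM of the 3 in every group but KO esiHDAC4 untreated (15.8 CPM against 13.7 for VASP). It also overlapped between genotypes. WT untreated gave 21.7, 14.7 and 13.6 CPM, and KO esiCT untreated gave 14.1, 13.2 and 19.8 CPM. WT OXPT gave 11.0, 10.5 and 12.4 CPM, and KO esiCT OXPT gave 8.78, 11.8 and 6.55 CPM. The log2 fold change of KO esiCT against WT was -0.090 (SE 0.25) untreated and -0.32 (SE 0.25) under OXPT. The untreated value ran from -0.29 to 0.14 in leave-outs of single libraries. As for ENAH, no KO library exceeded the highest WT library. For KO esiHDAC4 against WT, ENAH and EVL had log2 fold changes of -0.12 and -0.077 untreated and 0.064 and -0.096 under OXPT. The plot of fold changes shows these values around 0 beside the large negative values of VASP.

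Zyxin and profilin 1 mRNAs overlapped between genotypes as well. ZYX gave 205, 145 and 367 CPM in WT untreated and 183, 190 and 198 CPM in KO esiCT untreated. PFN1 gave 1353, 953 and 1293 CPM in WT untreated and 1335, 1361 and 1434 CPM in KO esiCT untreated. Across the 4 KO against WT contrasts, log2 fold changes ran from -0.76 to 0.015 for ZYX and from -0.18 to 0.60 for PFN1. The highest PFN1 value rests on KO esiCT OXPT replicate 3 at 4039 CPM, beside 1010 and 1557 CPM in replicates 1 and 2, and this library also had 22.3% unmapped reads, the highest share of the 24. Without it the OXPT contrast of PFN1 was -0.19, and whether its mapping has a part in the value was not tested.

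**Figure D2:**
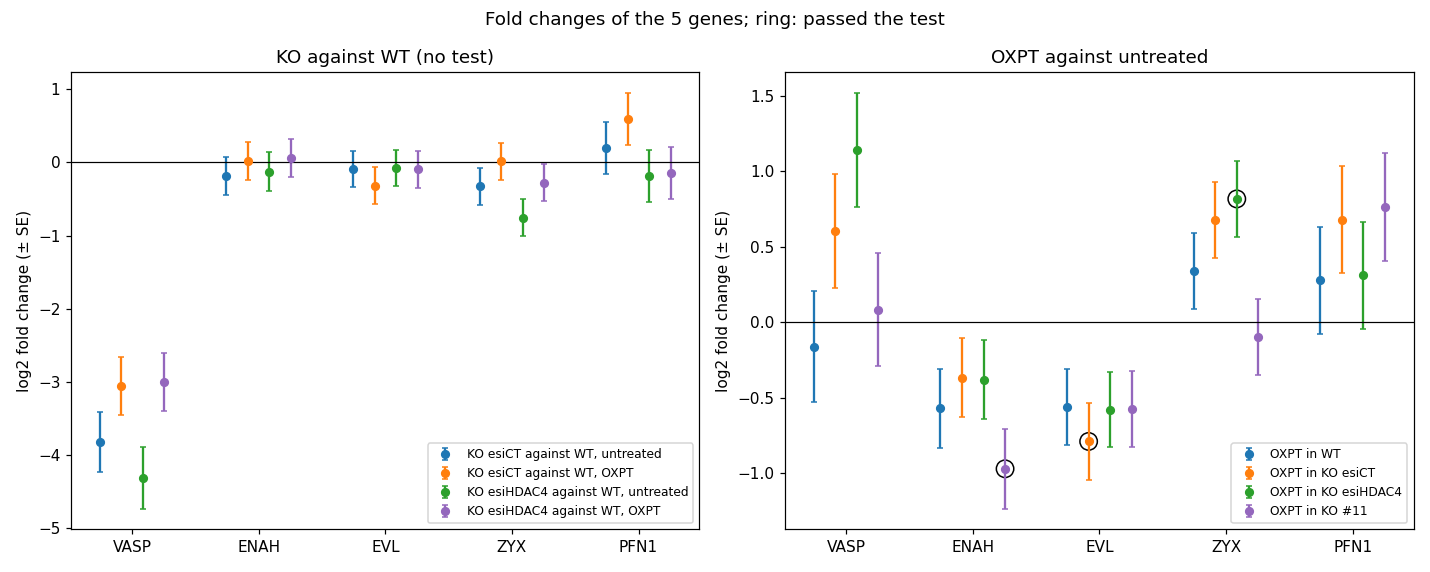
Log2 fold changes (y axis, points) with their SE (bars) of the 5 genes for KO against WT, without test, on the left, and for OXPT against untreated on the right. VASP lies between -4.31 and -3.00 in the KO contrasts, ENAH and EVL between -0.32 and 0.064, and rings mark the 3 OXPT values that passed the test.

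To compare the paralogs with each other, reads were divided by the length of the exons of each gene and summed over VASP, ENAH and EVL. Per kilobase, the family total was 83.8 ± 59.7 reads (per 1000000 counted) in WT untreated and 11.8 ± 0.861 in KO esiCT untreated (SD, n = 3), so that the KO mean was 14.1% of the WT mean. Under OXPT it was 73.3 ± 25.9 in WT and 12.9 ± 0.913 in KO esiCT, or 17.6%. Without WT untreated replicate 3, whose VASP level was 147.9 per kilobase beside 39.4 and 42.9 in the other replicates, the untreated value was 23.9%. The difference in VASP was 71.3 on this scale in untreated cells (35.7 without that library). The sum of ENAH and EVL in KO esiCT minus that in WT was -0.739 (-1.88 without that library). Under OXPT the VASP difference was 60.3, and that of ENAH and EVL was -0.159. In percent, the sum of ENAH and EVL was 89.6% of WT in untreated KO esiCT cells (77.2% without WT untreated replicate 3). Under OXPT it was 96.7% (90.8% without WT OXPT replicate 3). The mean sum was thus not above WT in KO esiCT, although ENAH alone was 3.78 in KO esiCT OXPT against 3.72 in WT OXPT. Reverse-strand counts put the sum at 101.6% under OXPT. In WT untreated, ENAH was 8.54 per kilobase in replicate 2 beside 4.49 and 3.52 in replicates 1 and 3. The order of the untreated means rests on that replicate 2 library. KO esiHDAC4 had 92.5% of the WT sum untreated and 102.04% with OXPT. KO #11 had 102.07% with OXPT and 126.9% untreated, where the sum was 9.02 ± 0.205 against 7.11 ± 2.61 in WT. In each of these 6 pairs of groups the KO and WT libraries overlapped, and the largest excess of the sum over WT was small beside the difference in VASP.

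The makeup of the family differed accordingly. VASP made up 87.9% ± 8.06 of the per-length total in WT untreated and 92.8% ± 2.89 with OXPT. For KO esiCT it was 46.1% ± 3.24 untreated and 63.9% ± 4.95 with OXPT, and ENAH held 41.3% ± 1.71 and 29.4% ± 4.40. EVL held 2.67% ± 1.83 in WT untreated and 12.6% ± 1.91 in KO esiCT untreated. Since VASP was chosen for its level, these shares are descriptions. With the length of the longest transcript in place of the exon union, the KO total was 13.95% of WT untreated and 17.2% with OXPT.

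**Figure D3:**
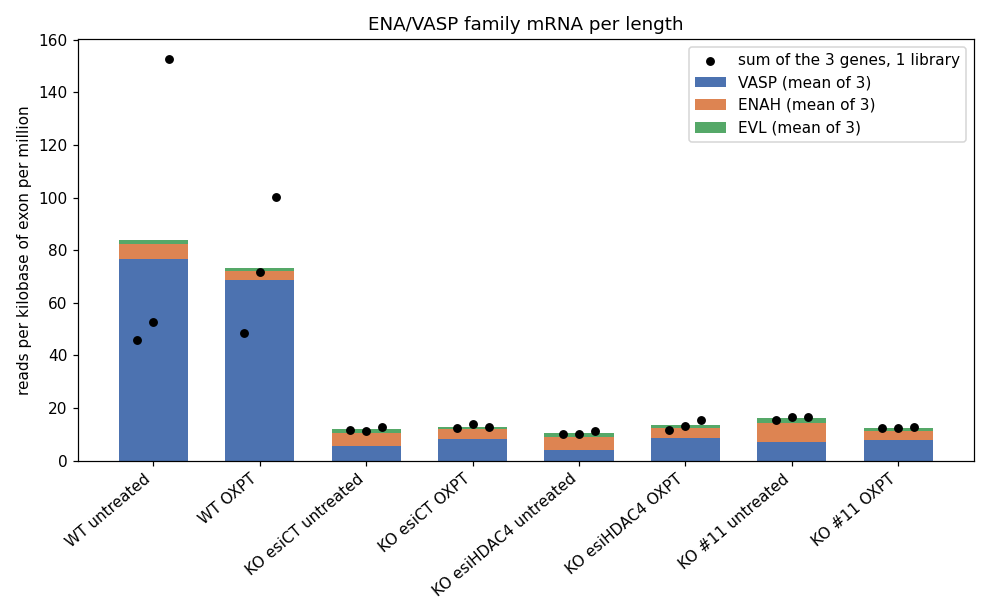
Stacked bars give the mean reads per kilobase of exon per 1000000 of VASP, ENAH and EVL in each group (n = 3), and black points give the sum of the 3 genes in each library. Mean totals lie between 10.5 and 16.3 in the 6 KO groups and are 83.8 (WT untreated) and 73.3 (WT OXPT) in the others, where number 3 is the highest library.

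The 12 WT libraries with unsettled treatment give the same separation on a scale of all 36 libraries. VASP was 123 to 500 CPM with a median of 247 in these 12, against 11.95 to 40.3 CPM in the 18 KO libraries. ENAH was 30.4 to 133 CPM with a median of 61.4, and EVL 6.24 to 22.01 CPM with a median of 12.9, and the KO libraries (39.5 to 109 CPM for ENAH and 6.33 to 19.03 CPM for EVL) lay within both ranges. Since these WT libraries mix treatment states, no test was made.

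**Figure D4:**
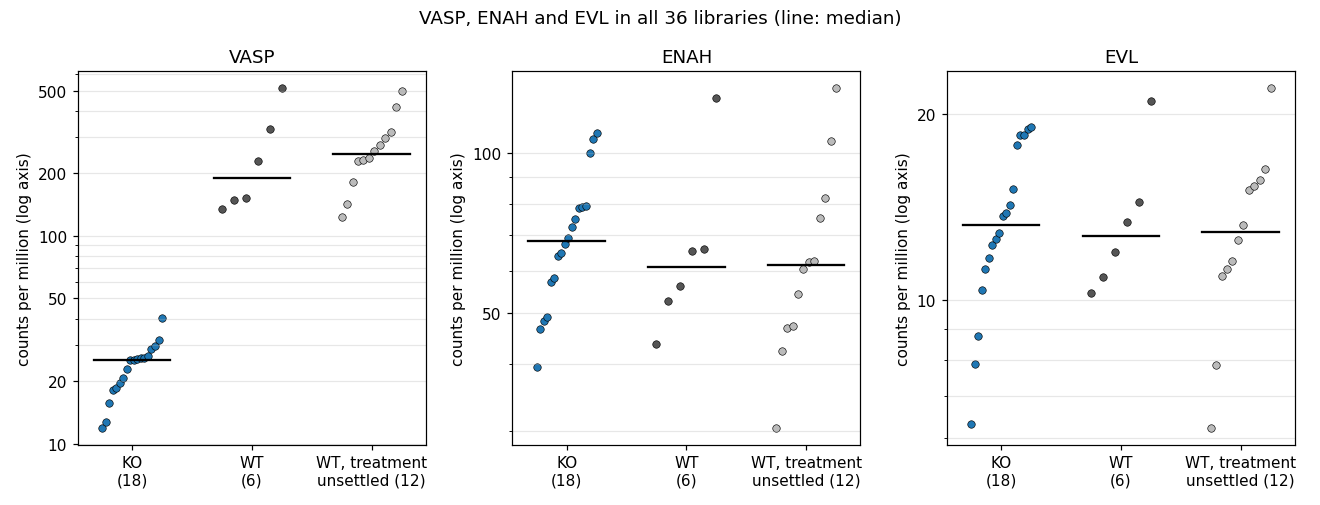
CPM on log axes of VASP, ENAH and EVL in the 18 KO libraries, the 6 WT libraries of known OXPT state and the 12 WT libraries of unsettled treatment, sorted by value, with lines at the medians. For VASP the 18 KO points end at 40.3 CPM and the 18 WT points begin at 123 CPM, and for ENAH and EVL the sets overlap.

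The genes beside VASP on chromosome 19 did not share its pattern. Of the 5 tested genes on each side (POLR1G, ERCC1, FOSB, RTN2 and PPM1N before it, OPA3, EML2, GIPR, SNRPD2 and QPCTL after it), 0 of 10 passed the edgeR test in any of the 4 KO against WT contrasts, and FOSB had an unadjusted p under 0.05 in both untreated contrasts. Their log2 fold changes ran from -1.13 for FOSB to 0.28 for RTN2 in untreated KO esiCT against WT, and from -0.46 for FOSB to 0.58 for PPM1N under OXPT. The value of VASP, -3.82, lies outside these ranges.

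Over the 24 libraries, genes whose log2 CPM closely followed VASP included RPS4Y1 (Pearson r = 0.96), a ribosomal protein gene on chromosome Y, PODXL2 (0.93), STK10 (0.91), a serine/threonine kinase, and DPEP1 (0.90), a membrane dipeptidase. DPEP1 had a median of 0.731 CPM in KO and 15.4 CPM in WT. STK10 differed less, with medians of 34.0 and 50.8 CPM. The correlation with VASP was -0.24 for ENAH, -0.068 for EVL, 0.54 for ZYX and 0.19 for PFN1. These correlations are descriptions over libraries that share the genotype contrast and the number 3 libraries.

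Among 13 listed ligands of the ENA/VASP family and relatives of zyxin, 10 could be tested, and FBLIM1 and PALLD were lower in KO. FBLIM1 encodes migfilin, a LIM protein of adhesions, and PALLD encodes palladin, a scaffold of stress fibres that binds VASP. FBLIM1 gave 6.66, 4.44 and 15.6 CPM in WT untreated against 1.43, 1.18 and 1.91 CPM in KO esiCT untreated, and PALLD gave 133, 236 and 70.1 CPM against 38.1, 34.1 and 31.4 CPM. Neither gene overlapped between these groups. FBLIM1 reached 64 counts in some groups only, so the filter on low counts can favour the direction of its change. The log2 fold changes were -2.54 (SE 0.38, adjusted p = 0.00209) for FBLIM1 and -2.08 (SE 0.32, adjusted p = 0.00209) for PALLD. Fitted on the compared groups alone, neither passed here (adjusted p = 0.750 for both) nor in the KO esiHDAC4 contrasts that follow (0.550 for both untreated, 0.552 for PALLD under OXPT).

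**Figure D5:**
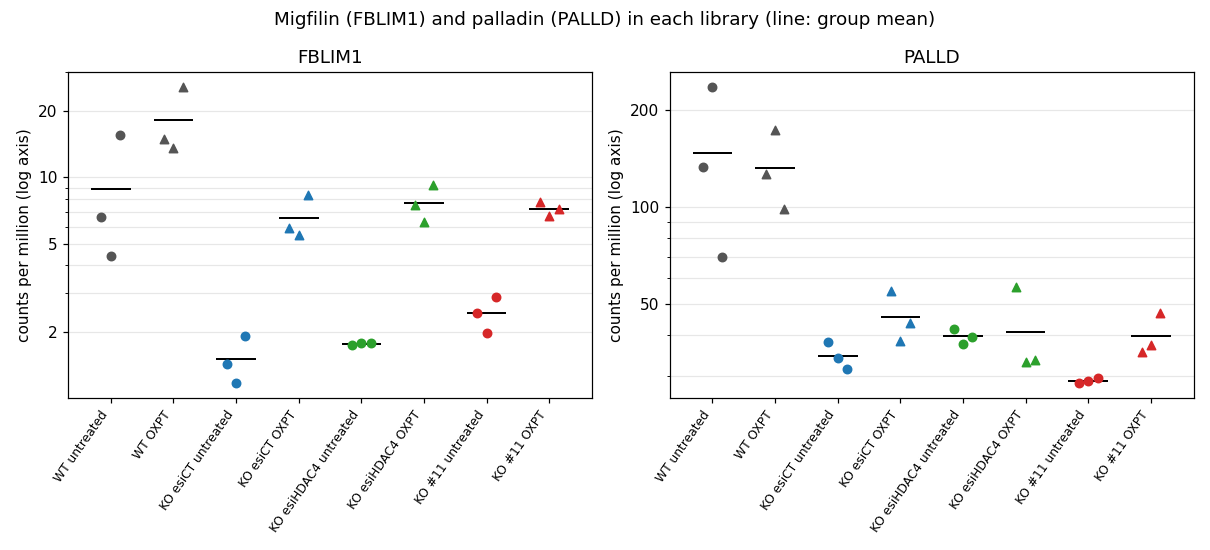
CPM on log axes of FBLIM1 and PALLD in each of the 24 libraries, with circles for untreated cells, triangles for OXPT and lines for group means (n = 3). In untreated cells both genes are lower in all KO libraries than in all WT libraries, and FBLIM1 is higher with OXPT than without in each KO condition.

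In KO esiHDAC4 against WT untreated the values were -2.31 for FBLIM1 and -1.88 for PALLD, and both passed. Under OXPT, PALLD passed in KO esiHDAC4 (-1.69, SE 0.31, adjusted p = 0.0191) but not in KO esiCT (-1.53, adjusted p = 0.0557), and FBLIM1 passed in neither (-1.24 and -1.46). The PALLD call under OXPT was lost without KO esiHDAC4 OXPT replicate 2 (adjusted p = 0.157) or 3 (0.0879) or WT OXPT replicate 2 (0.122). The median log2 fold change of the 10 ligands was -0.38 in untreated KO esiCT against WT and -0.032 under OXPT, beside -0.028 and 0.046 over all genes. Of the 99 tested genes in all 8 lists of actin regulators, FBLIM1 and PALLD were the 2 that passed in untreated KO esiCT against WT. There 0.291% of all genes passed. Under OXPT 0 of the 99 passed with edgeR, beside 0.138% of all genes. In that contrast 7 of the 99 had an unadjusted p under 0.05 and DESeq2 called 2, again FBLIM1 and PALLD. No listed profilin, Arp2/3 gene, formin, capping or severing gene, focal adhesion gene or VASP kinase passed with edgeR in any of the 4 contrasts, and DESeq2 called WASF3, a WAVE protein that activates Arp2/3 (1.27, adjusted p = 0.0225), and the zyxin relative LIMD1 (-0.82, adjusted p = 0.0160) in untreated KO esiHDAC4 against WT.

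Log2 fold changes of the 5 genes with OXPT ran from -0.97 to 1.14 over the 4 comparisons, and which of them passed depended on the condition. In KO esiCT, 11.3% of all genes passed, and EVL alone of the 5 passed, at a log2 fold change of -0.79 (SE 0.25, adjusted p = 0.0467). In KO esiHDAC4, where 12% of all genes passed, ZYX alone of the 5 passed (log2 fold change 0.82, SE 0.25, adjusted p = 0.0407). It went from 143, 131 and 149 to 188, 245 and 313 CPM. In KO #11, where 9.51% passed, ENAH alone of the 5 passed (-0.97, SE 0.26, adjusted p = 0.0226). It went from 105, 112 and 111 to 49.3, 50.7 and 66.9 CPM. In WT 10.7% of all genes and none of the 5 passed, but without WT untreated replicate 3 ENAH (adjusted p = 0.0357) and ZYX (adjusted p = 0.0178) did. These counts of 1 in 5 or fewer are near the shares of all genes.

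The calls of EVL and ZYX were close to the threshold. EVL in KO esiCT did not pass with reverse-strand counts (-0.42, adjusted p = 0.264) nor in 16 of 24 leave-outs of single libraries. ZYX in KO esiHDAC4 did not pass with reverse-strand counts (0.78, adjusted p = 0.0885) nor in 11 of 24 leave-outs. ENAH in KO #11 was called with both other strand columns, both other count filters, other scaling, the replicate block and DESeq2, but not in 4 of 24 leave-outs, each of a KO #11 library (adjusted p up to 0.102). With the replicate number as a block, ZYX also rose in KO esiCT (0.67, adjusted p = 0.0376, against 0.0896 without the block).

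VASP was measured higher with OXPT in KO esiCT and KO esiHDAC4, in libraries that had also chosen the gene. In KO esiHDAC4 it was 12.8, 12.2 and 16.2 CPM untreated and 20.5, 29.0 and 41.4 CPM with OXPT, without overlap, at a log2 fold change of 1.14 (SE 0.38, adjusted p = 0.0542), which missed the threshold. It passed with the replicate block (adjusted p = 0.0189) and with DESeq2 (adjusted p = 0.0275). In KO esiCT the value was 0.60 (SE 0.38, adjusted p = 0.329), also without overlap of the groups. In KO #11 it was 0.082 (adjusted p = 0.925) and in WT -0.16 (adjusted p = 0.830), the latter turning to 0.43 without the number 3 libraries and to 0.74 (adjusted p = 0.0642) without WT untreated replicate 3 alone. Even the highest OXPT-treated KO library stayed below every WT library.

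Over all 4 OXPT comparisons the log2 fold changes of ENAH were -0.37 in KO esiCT, -0.38 in KO esiHDAC4, -0.97 in KO #11 and -0.57 in WT. Those of EVL were -0.79, -0.58, -0.57 and -0.56 in the same order, of which only the value in KO esiCT passed. PFN1 ranged from 0.28 in WT to 0.76 in KO #11. Tests of whether the OXPT effect differed between KO esiCT and WT, with esiHDAC4 or with #11 found 0 of the 5 genes and 0% of all genes in each case by edgeR, with 201, 19 and 863 of all genes at an unadjusted p under 0.05 and 0, 0 and 30 called by DESeq2. For #11 the DESeq2 calls included the listed genes CCN1 (-3.48, adjusted p = 0.00110), CCN2 (-3.01, adjusted p = 0.00143) and AJUBA (-1.77, adjusted p = 0.00189). Of the 5 genes, ZYX had the largest such difference, -0.78 (SE 0.36, edgeR adjusted p = 0.698) for #11, where ZYX was 245, 212 and 232 CPM untreated and 233, 198 and 211 CPM with OXPT.

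Silencing of HDAC4 and #11 changed none of the 5 genes past the threshold. For esiHDAC4 in KO the log2 fold changes ran from -0.75 to 0.22, where 0.00809% of all genes passed in untreated and 0% in OXPT-treated cells by edgeR, with 394 and 380 genes at an unadjusted p under 0.05 and 32 and 9 called by DESeq2. In untreated cells the values for esiHDAC4 were -0.49 for VASP (SE 0.38, adjusted p = 1.00), -0.43 for ZYX (SE 0.25) and -0.38 for PFN1 (SE 0.35). For #11, where 0.51% of all genes passed in untreated and 0.121% in OXPT-treated KO cells, the log2 fold changes ran from -0.90 to 0.56. In untreated cells, ENAH had a value of 0.56 with #11 (SE 0.26, adjusted p = 0.350). PFN1 had a value of -0.90 there (SE 0.36, adjusted p = 0.247), at 818, 860 and 533 CPM with #11. The per-length family total of KO #11 untreated was 16.3 ± 0.590, the highest of the KO groups, beside 83.8 ± 59.7 in WT untreated.

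Several partners of the family rose with OXPT in KO esiCT and KO esiHDAC4. In KO esiCT, where 6.23% of all genes rose and 5.08% fell, 4 of the 10 tested ligands and zyxin relatives rose and none fell with edgeR, while DESeq2 also called LPP lower (-1.45, adjusted p = 0.0242). These were FBLIM1 (2.11, SE 0.38), AJUBA (1.79, SE 0.25), TRIP6 (1.64, SE 0.39) and WTIP (1.05, SE 0.25), all LIM proteins, and the median of the list was 0.50 beside 0.0098 over all genes. KO esiHDAC4 cells, with 6.44% of all genes higher and 5.54% lower, also had FBLIM1 (2.11), TRIP6 (1.53), AJUBA (1.52) and WTIP (1.00) rise, and LPP, a zyxin paralog, fell (-2.15, SE 0.50). In KO #11, FBLIM1 rose (1.58, SE 0.37) and LPP fell (-2.13, SE 0.50), with AJUBA at 0.039 and WTIP at -0.0047. In WT, AJUBA rose (1.42, SE 0.25) and LPP fell (-1.74, SE 0.49). FBLIM1 had a value of 1.03 there (adjusted p = 0.0630) and was called higher by DESeq2 (0.98, adjusted p = 0.0490). The edgeR counts of 1 up and 1 down in 10 for KO #11 and for WT are near the shares of all genes (5.94% up and 3.57% down, and 5.1% up and 5.6% down). All 13 listed genes called for OXPT in WT, over all 8 lists, lost their call with WT libraries alone in the fit (adjusted p from 0.0527 for TLN2 to 0.298 for FLNA). Without WT OXPT replicate 3, LPP (adjusted p = 0.109), MYL9 (0.0848), FLNA (0.0760) and DIAPH3 (0.0922) were also lost, and without WT untreated replicate 2, LPP (0.0929), MYL9 (0.103), DIAPH3 (0.144) and DIAPH2 (0.0531). FLNA was further lost without WT untreated replicate 1 (0.0578).

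Actins and targets of serum response factor (SRF) and its MRTF coactivators, which respond to the pool of free actin, included 16 tested genes. Of these, 5 rose in KO esiCT, 6 in KO esiHDAC4, 1 in KO #11 and 4 in WT, and none fell with edgeR. ACTA2 (1.68 CPM untreated and 6.11 with OXPT in KO esiCT) and CCN2 (2.17 and 19.5 CPM) did not reach 64 counts in every group. The filter on low counts can thus favour the direction of their change. The shares of all genes that rose were 6.23% in KO esiCT, 6.44% in KO esiHDAC4, 5.94% in KO #11 and 5.1% in WT. Against these, the 1 of 16 in KO #11 is at the background. CCN2 rose by 3.16 in KO esiCT and 3.13 in WT on the log2 scale, CCN1 by 2.98 and 2.50, ACTA2 by 1.88 and 1.97 and MYL9 by 1.53 and 1.20. In KO esiCT the calls of ACTA2 (adjusted p = 0.0982) and SRF (adjusted p = 0.142) were lost with only the compared groups in the fit. The SRF call in KO esiCT was also lost in 15 of 24 leave-outs of single libraries. In the order just given, the medians of the list were 0.50, 0.63, 0.18 and 0.53, beside 0.0098, 0.018, -0.0024 and -0.059 over all genes. In untreated KO, where 0.38% of all genes rose and 0.129% fell with #11, it raised CCN1 (2.29, SE 0.51) and CCN2 (2.26, SE 0.47), and AJUBA (1.21, SE 0.25) and the cofilin phosphatase SSH1 (0.91, SE 0.20), while the formin FHOD1 fell by 1.02 (SE 0.21). These 5 calls had adjusted p between 0.0390 and 0.0459, and each was lost in 12 to 16 of 24 leave-outs of single libraries. In OXPT-treated KO, #11 changed 0 of the 16 actins and SRF targets with edgeR, at a median of -0.57 beside -0.014 over all genes. DESeq2 called ACTG1 (-0.73, adjusted p = 0.00113), MYL9 (-1.24, adjusted p = 0.0216) and TPM4 (-0.69, adjusted p = 0.000173) lower there.

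Formins, which elongate filaments in parallel to the ENA/VASP family, had 10 tested genes, of which OXPT lowered 2 in KO esiCT, and it lowered 2 with esiHDAC4 and 3 in WT. The shares of all genes lowered there were 5.08%, 5.54% and 5.6%. FHOD3 fell in these, with log2 fold changes of -4.08, -3.79 and -2.82, and so did DIAPH2, with -1.62, -2.20 and -1.75. Neither FHOD3 nor DIAPH2 reached 64 counts in every group, so the filter on low counts can favour the direction of their change. DIAPH3 fell in WT (-1.88), and DIAPH2 in KO esiCT did not pass with only the compared groups in the fit (adjusted p = 0.0643). With #11, FHOD3 (-2.41) and DIAPH2 (-2.03) fell and FHOD1 rose (1.07). Among 19 tested genes of the Arp2/3 complex and its activators, CYFIP2, a subunit of the WAVE complex, rose in all 4 comparisons (by 1.39 with #11 and by 1.46 to 1.76 otherwise). With #11, WASL, which encodes the Arp2/3 activator N-WASP, fell (-1.09, SE 0.31, adjusted p = 0.0286), as did ABI2 of the WAVE complex (-0.69, SE 0.17, adjusted p = 0.0124), so that 1 of the 19 rose and 2 fell. The WASL call was lost without any single KO #11 library but OXPT replicate 3, at adjusted p up to 0.129, and the ABI2 call without KO #11 OXPT replicate 2 (0.0600). WDR1, which works with cofilin in filament disassembly, rose by 0.93, 0.99 and 0.92 in KO esiCT, KO esiHDAC4 and WT, and SSH1 fell with OXPT in KO #11 (-0.97). Of 19 tested focal adhesion genes, TLN2, a talin, fell in KO esiCT (-3.15), KO esiHDAC4 (-3.23), KO #11 (-1.95) and WT (-2.76), and FLNA, filamin A, rose by 1.05, 0.98 and 0.91 in all but KO #11. The 1 or 2 genes in 19 that rose and the 1 that fell per comparison on this list, and the 1 that rose on the Arp2/3 list, are near the shares of all genes. None of the 7 tested profilins and monomer binders and none of the 4 tested VASP kinases passed in any of the 4 with edgeR, whereas DESeq2 called PRKACB, a catalytic subunit of protein kinase A, lower in KO esiHDAC4 (-1.45, adjusted p = 0.0353) and in WT (-1.56, adjusted p = 0.0233).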

How the data were processed

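The authors deposited raw counts per gene for each library, as whole numbers counted without strand and for each strand, in the layout of STAR; the submitters' processing notes name Trimmomatic 0.39, STAR 2.7.11a and hg38, with the annotation not given in the sources used here. A ratio of reverse to forward counts of 1.00 to 1.02 led to use of the unstranded column. Genes with a mean of at least 64 counts in at least 1 group were fitted in 1 model of 24 libraries with edgeR 4.0.16 (R 4.3.3, TMM, quasi-likelihood F test). Of the listed genes that were called, ACTA2, CCN2, FBLIM1, FHOD3, DIAPH2 and TLN2 did not reach this mean in every group. A gene passed if its Benjamini-Hochberg adjusted p (12356 genes) was under 0.05 and its fold over 1.5. Where groups of 3 libraries are said not to overlap, the share of all genes without overlap is not given, and nothing is read from it. SE is the log2 fold change divided by the square root of F. CPM used TMM library sizes, and log2 CPM a prior count of 2. The fit was tested on simulated data. Replicate numbers come from the titles. Same-numbered libraries deviated together (correlations over 0.1) in every comparison except those of #11 with esiCT. The replicate number used as a block paired all 24 libraries by number, those of #11 included. The statistics note of the study speaks of independent experiments for its figures in general, but whether same-group libraries came from separate cultures is not stated for the RNA-seq, so p-values measure the spread between these libraries, which may be technical. The 5 genes, the gene lists, the markers and the rule for named genes (the 5 genes, the 5 most correlated with VASP, its 5 neighbours on each side and up to 4 called genes per list) were chosen with earlier results of these data known. Of the genes this rule names, 1 is not reported here. Symbols, lengths and positions came from GENCODE, promoters from RefSeq for all 5 genes. DESeq2 1.42.0 was an alternative.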

Additional observations from a re-analysis of the deposited data

How the results depend on the processing

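Of the 5 genes, the number that passed changed with several settings. For OXPT in KO esiCT it was 1 as reported, 0 with reverse-strand counts, forward-strand counts, no count filter or only the groups compared, and 2 with the replicate block; leaving out single libraries gave 0 to 2. For OXPT in KO esiHDAC4 it was 1 as reported, 0 with reverse-strand counts, forward-strand counts or 64 counts in every group, and 2 with DESeq2, only the groups compared, the replicate block or the number 3 libraries omitted (a setting added once the data had been seen); leave-outs gave 0 to 2. For OXPT in KO #11 it was 1, 2 with only the groups compared (PFN1 added) and 0 to 1 in leave-outs. For OXPT in WT it was 0, 1 without number 3 (EVL, adjusted p = 0.0484) and 0 to 2 in leave-outs. For #11 in untreated KO it was 0, and 1 with no count filter or only the groups compared (PFN1). The replicate block changed no other call of the 5 genes. Of the alternatives in which a tested log2 fold change crossed 0, none passed, and the largest value was that of VASP with OXPT in WT, 0.74 (adjusted p = 0.0642) without WT untreated replicate 3. With forward-strand counts these were VASP for OXPT in KO #11 (-0.012), EVL for esiHDAC4 in untreated KO (-0.00091) and VASP for esiHDAC4 under OXPT (-0.0060, and -0.0073 with the replicate block), and with reverse-strand counts EVL for esiHDAC4 under OXPT (-0.20). Without number 3 they were PFN1 for OXPT in KO esiCT (-0.063), VASP for OXPT in WT (0.43), VASP and EVL for esiHDAC4 under OXPT (-0.22 and -0.10) and PFN1 for #11 under OXPT (0.037). Leaving out single libraries, sign changes lay within -0.10 to 1.01 for PFN1 with OXPT in KO esiCT and -0.48 to 0.74 for VASP with OXPT in WT. For esiHDAC4 in untreated KO they lay within -0.013 to 0.14 for ENAH and -0.12 to 0.21 for EVL. Under OXPT, esiHDAC4 gave -0.24 to 0.28 for VASP, -0.20 to 0.25 for ENAH and -1.10 to 0.032 for PFN1, and #11 gave -0.20 to 0.026 for ENAH. The cause was not tested. The untested values of ENAH and EVL in untreated KO esiCT against WT also crossed 0 in leave-outs. The KO esiCT family total stayed between 11.5% and 23.9% of WT untreated, and between 15.02% and 21.8% with OXPT, under each alternative.

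Limits are the unsettled esiRNA of the WT libraries, the wide spread among WT libraries and 3 libraries per group. Over all genes the number that passed for #11 in untreated KO was 63, and 0 to 340 when single libraries were left out. It was 409 with DESeq2 and 566 with only the compared groups in the fit. OXPT in WT called 1322 genes, but 84 when only its own groups were fitted.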
